A study of Mus musculus with 6 samples.

Results

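The endocannabinoid system of the hippocampus was described through 9 genes: the enzymes that make and break down its lipid messengers, the receptor that senses them, and the cyclooxygenase that a seizure induces. The 9 genes were taken by symbol from a table of 23361 gene symbols, and all 9 were found. They were Dagla, Daglb, Mgll, Abhd6, Abhd12, Napepld, Faah, Cnr1 and Ptgs2. The samples were whole hippocampi of 3 Tet1Δe4-/- mice, homozygous for a deletion of exon 4 of Tet1 and called Tet1-deficient here, and of 3 Tet1+/+ mice, called wild-type. The TET1 protein oxidises methylated cytosine in DNA. Every mouse, wild-type included, had received electroconvulsive shock through the ears (18 mA, 100 Hz, pulses of 0.2 ms, for 1.15 seconds), which evokes a tonic-clonic seizure, and hippocampi were taken 1.5 to 2 hours later. Unshocked hippocampus was not analysed here, so the response to the shock itself was not measured. The design names 3 separate mice per genotype. Age, strain and litter are not stated in the labels, which name no Cre or transgene. The values are FPKM, fragments scaled to transcript length and to the mapped fragments of the library, so levels of different genes can be compared per length.

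Endocannabinoids are lipid messengers that a postsynaptic neuron makes on demand and that act backwards on the presynaptic terminal, where the CB1 receptor lowers transmitter release. The most abundant of them in brain, 2-arachidonoylglycerol (2-AG), is cut from diacylglycerol by diacylglycerol lipases and is removed by monoacylglycerol lipase and by ABHD6 and ABHD12. Anandamide, the other main endocannabinoid, is an N-acylethanolamine made in part by NAPE-PLD and removed by fatty acid amide hydrolase. Hydrolysis of 2-AG in brain also supplies arachidonic acid to the cyclooxygenases. Cyclooxygenase 2, the product of Ptgs2, makes prostaglandins from it and can oxygenate endocannabinoids directly. Ptgs2 is known as an activity-induced gene of excitatory hippocampal neurons.

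Promoter sequence is shown for 4 members on which the values below turn: Ptgs2 and Cnr1, which varied among libraries, Mgll, which varied least, and Abhd6, whose genotypes did not overlap. The sequences are from RefSeq on GRCm38.p6 (mm10), each covering 250 bases before a start site and 30 from it on. In the first 3, capitals mark CGTCA, the core of a cyclic AMP response element (CRE), or CACGTG, an E-box.
Ptgs2 (chr1:150099781-150100060, plus strand): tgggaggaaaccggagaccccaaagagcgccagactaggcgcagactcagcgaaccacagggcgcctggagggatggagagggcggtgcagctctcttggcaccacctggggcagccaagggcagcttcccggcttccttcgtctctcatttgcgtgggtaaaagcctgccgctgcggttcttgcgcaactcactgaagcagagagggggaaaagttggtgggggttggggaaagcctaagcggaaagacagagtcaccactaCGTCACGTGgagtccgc
Cnr1 (chr4:33924394-33924673, plus strand): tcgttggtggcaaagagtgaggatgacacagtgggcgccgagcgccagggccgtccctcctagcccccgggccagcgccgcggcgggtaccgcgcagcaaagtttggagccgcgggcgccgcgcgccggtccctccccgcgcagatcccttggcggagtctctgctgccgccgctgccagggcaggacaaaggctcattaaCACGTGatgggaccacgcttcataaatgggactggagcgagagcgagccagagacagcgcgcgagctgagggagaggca
Mgll (chr6:88724162-88724441, plus strand): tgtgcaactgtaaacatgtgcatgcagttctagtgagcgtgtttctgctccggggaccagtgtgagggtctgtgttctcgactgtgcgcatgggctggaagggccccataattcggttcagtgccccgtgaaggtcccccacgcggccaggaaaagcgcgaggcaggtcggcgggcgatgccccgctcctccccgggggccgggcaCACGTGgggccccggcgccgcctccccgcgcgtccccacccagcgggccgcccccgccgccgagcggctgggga
In Abhd6 capitals mark CpG, the dinucleotide at which Tet1 substrates mainly occur.
Abhd6 (chr14:8002638-8002917, plus strand): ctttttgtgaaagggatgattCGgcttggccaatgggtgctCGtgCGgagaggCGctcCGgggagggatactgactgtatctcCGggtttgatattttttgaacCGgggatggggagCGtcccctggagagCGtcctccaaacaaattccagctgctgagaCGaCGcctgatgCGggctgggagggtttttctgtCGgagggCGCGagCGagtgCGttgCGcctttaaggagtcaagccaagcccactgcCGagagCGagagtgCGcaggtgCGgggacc

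Both strands were searched, and 7 of the 9 members had such a window. Dagla and Abhd12 had no entry, and of several windows of a gene the one nearest its annotated start was used. In Ptgs2 the CRE core and the E-box overlapped as CGTCACGTG, beginning 13 bases after the annotated start site, an arrangement that 0.438% of 32851 promoter windows held. The CRE and E-box of the Ptgs2 promoter are known from cell culture as elements of its induction. Cnr1 and Mgll held an E-box without a CRE core, beginning 49 and 44 bases before the start site. These matches depend on the window: a second Mgll window, with its start site at 88724704, held CGTCA beginning 19 bases after that start and no E-box, and the 2 further Cnr1 windows held neither motif. The E-box occurred in 6.79% and CGTCA in 19.9% of all windows. The windows used for Abhd6, Daglb, Faah and Napepld held neither motif, and none of the 7 windows used held the full CRE TGACGTCA (1.74% of all windows) or the AP-1 motif TGANTCA (7.46%). The number of CpG was 31 in the Cnr1 window, 29 in Mgll, 25 in Napepld, 22 in Abhd6, 16 in Ptgs2, 14 in Faah and 9 in Daglb, against a median of 6.0 over all windows. CpG counts depend on the window too: the further windows held 37 and 5 in Cnr1, 41 in Mgll and 23 in Abhd6. A match is a description of letters, and DNA methylation was not measured in these samples.

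The 6 libraries were alike, with Pearson correlations across tested genes from 0.965 to 0.990, but the replicate 1 libraries of both genotypes lay apart from the other 4 on the first principal component, which held 53.3% of the variance. Both libraries lay outside the range of the other 4 for 63.5% of the 12533 genes tested, those with a mean of at least 1 FPKM. Wild-type replicate 1 also differed from all others in sex, with 63.5 FPKM of Xist and 0.0381 FPKM of Ddx3y, against at most 0.202 FPKM of Xist and at least 16.7 FPKM of Ddx3y elsewhere. Tet1 itself was scarce, at 0.740, 0.685 and 0.638 FPKM in Tet1-deficient and 0.977, 0.718 and 0.897 FPKM in wild-type libraries. The groups overlapped, and a value over the whole gene does not check the loss of 1 exon. Markers of glutamatergic neurons were abundant in every library, with summed levels of 2266 to 2350 FPKM in Tet1-deficient and 2063 to 2130 FPKM in wild-type libraries. These sums did not overlap. Taken singly, 1 of the 8 markers, Camk2a, was without overlap, against 4.13% of all tested genes. Read depth is unknown.

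None of the 9 genes passed the test for a difference between genotypes. Of the 9, 6 were higher and 3 lower in Tet1-deficient hippocampus, and the absolute log2 difference had a median of 0.04, against 0.05 over all genes tested. In limma's moderated test with Benjamini-Hochberg adjustment over all tested genes, 0 of the 9 passed the threshold of 0.05, where 0.0319% of all genes did, and the adjusted p of each was 1.00. At an unadjusted p under 0.05 there were also 0 of 9, against 1.36% of all genes. The genotypes did not overlap for 1 of 9, Abhd6, against 4.13% of all genes in either direction and 1.91% that, like Abhd6, were higher in every Tet1-deficient library. A missed threshold does not show that levels were equal, so the 95% interval of each difference is given. Each log2 difference subtracts the wild-type mean of log2(FPKM + 1) from the Tet1-deficient mean.

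**Figure D1:**
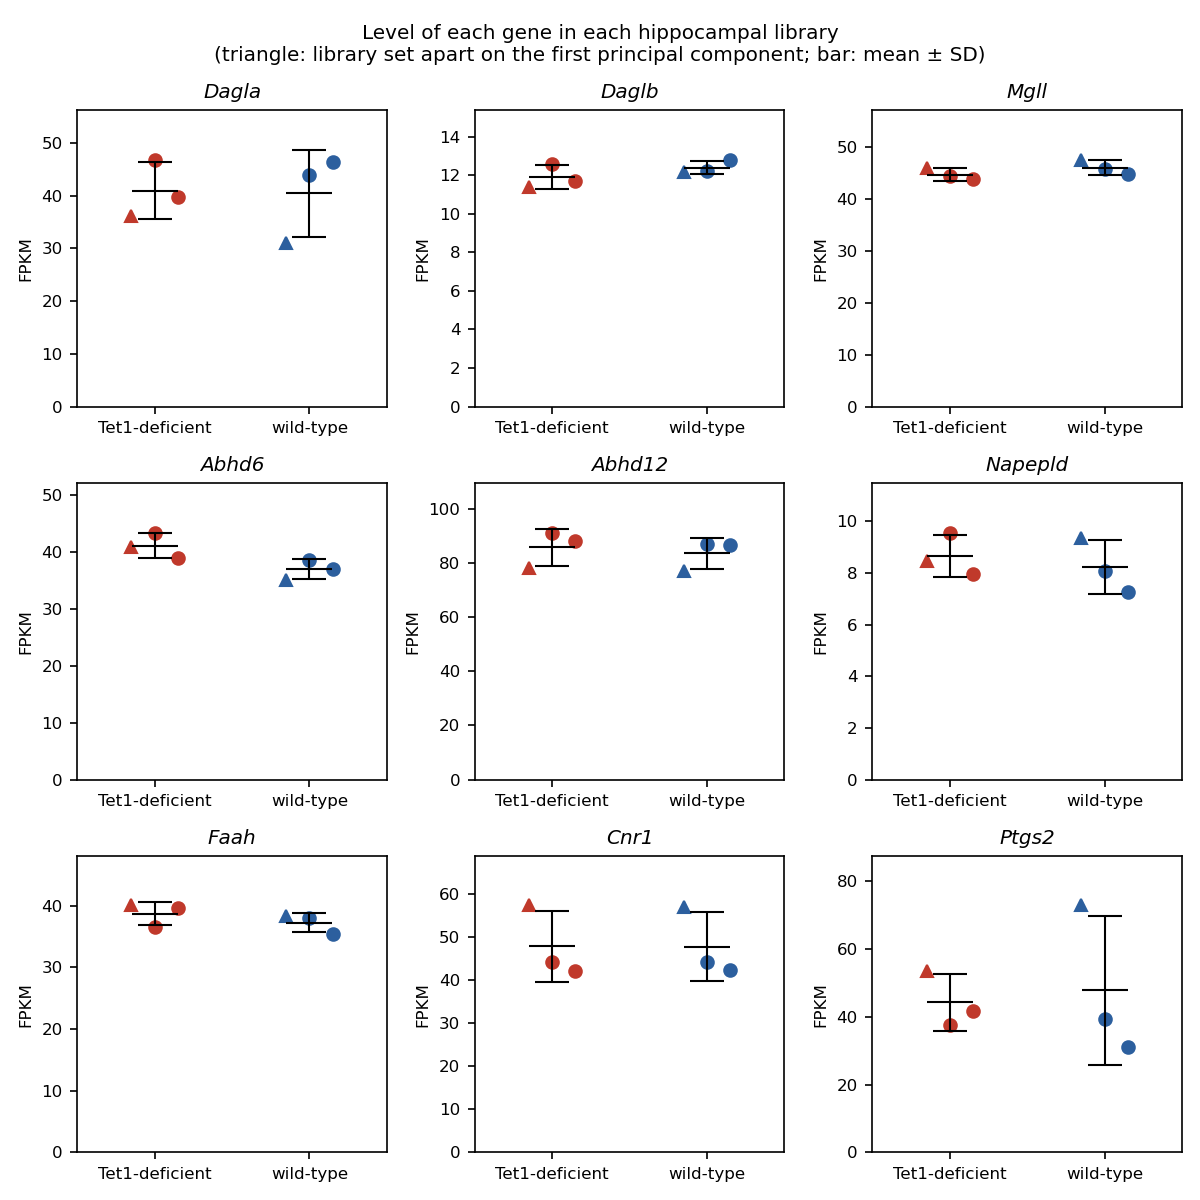
FPKM of the 9 genes in each library, Tet1-deficient (red) left and wild-type (blue) right, with the mean and SD of 3 libraries per genotype; triangles are the replicate 1 libraries. Only the Abhd6 panel has no overlap between genotypes, with Tet1-deficient libraries from 38.9 to 43.4 FPKM and wild-type libraries from 35.1 to 38.6 FPKM.

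Per length, Abhd12 had the most transcript, with a mean of 84.9 FPKM over the 6 libraries, and was above every other member in each library. A middle group followed with Cnr1 at 47.8, Ptgs2 at 46.0, Mgll at 45.4, Dagla at 40.7, Abhd6 at 39.0 and Faah at 37.9 FPKM. Each neighbouring pair within it had overlapping ranges, so neighbours in this order do not differ beyond their spread. Genes farther apart did: every value of Mgll (43.8 to 47.6 FPKM) was above every value of Abhd6 (35.1 to 43.4 FPKM) and of Faah (35.4 to 40.0 FPKM), and every value of Cnr1 (42.1 to 57.3 FPKM) was above those of Faah. Daglb, at 12.1 FPKM, lay below all of them without overlap, and Napepld, at 8.45 FPKM, lay below Daglb in 6 of 6 libraries. The members ranged from the percentile 42.4 of tested genes for Napepld to 93.2 for Abhd12.

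The lipases that make 2-AG showed no genotype difference beyond the spread between replicates. Dagla encodes the diacylglycerol lipase that makes most of the 2-AG of adult brain synapses and lies on chromosome 19 from 10245265 to 10304877 (mm10). It measured 36.1, 46.8 and 39.8 FPKM in Tet1-deficient and 31.0, 44.0 and 46.3 FPKM in wild-type libraries. The genotypes overlapped, and in each of them replicate 1 was the lowest library. The means were 40.9 ± 5.42 FPKM in Tet1-deficient and 40.4 ± 8.25 FPKM in wild-type hippocampus (SD, n = 3), with a log2 difference of 0.03 (SE 0.18, 95% interval −0.39 to 0.44, limma adjusted p 1.00). Without wild-type replicate 1 it was −0.15, and without Tet1-deficient replicate 2 it was −0.07.

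Daglb encodes the second diacylglycerol lipase, which is prominent in microglia, and occupies 143464584 to 143505942 on chromosome 5. It measured 11.4, 12.6 and 11.7 FPKM in Tet1-deficient and 12.2, 12.2 and 12.8 FPKM in wild-type libraries. The ranges overlapped, and the 6 values spanned a ratio of 1.12 from lowest to highest. The log2 difference was −0.06 (SE 0.08, 95% interval −0.26 to 0.14). Microglial markers had summed levels of 122 to 139 FPKM in Tet1-deficient and 127 to 138 FPKM in wild-type libraries. Daglb overlaps the Rac1 gene on the opposite strand. No strand setting is stated, so reads of any shared exons could not be assigned by strand, and exon overlap was not examined.

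Of the 3 lipases that remove 2-AG, Mgll varied least among libraries. Only Abhd6 had genotypes that did not overlap, as 4.13% of all tested genes had. Mgll encodes monoacylglycerol lipase, the presynaptic and glial enzyme that hydrolyses most 2-AG in brain, and occupies 88724412 to 88828360 on chromosome 6. It measured 46.1, 44.4 and 43.8 FPKM in Tet1-deficient and 47.6, 45.8 and 44.8 FPKM in wild-type libraries. The 6 values lay within a ratio of 1.09, and 1.88% of tested genes had a smaller SD of log2(FPKM + 1) over the libraries. The log2 difference was −0.04 (SE 0.08, 95% interval −0.23 to 0.15), that is, a ratio between 0.852 and 1.11. Several antisense or unverified transcripts are annotated within the gene.

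Abhd6 encodes a postsynaptic membrane hydrolase that removes 2-AG near its site of synthesis and lies on chromosome 14 from 8002902 to 8056763. It measured 40.8, 43.4 and 38.9 FPKM in Tet1-deficient and 35.1, 38.6 and 37.0 FPKM in wild-type libraries. Every Tet1-deficient library exceeded every wild-type library, though the lowest of the first was 38.9 and the highest of the second 38.6 FPKM. The means were 41.0 ± 2.22 FPKM in Tet1-deficient and 36.9 ± 1.74 FPKM in wild-type hippocampus (SD, n = 3), a ratio of 1.11. The log2 difference was 0.15 (SE 0.09, 95% interval −0.06 to 0.36), and limma's p was 0.135 before and 1.00 after adjustment. The exact permutation p, two-sided, was 0.1, the smallest possible with 3 libraries against 3, and 0.9 when adjusted over the 9 genes. By unadjusted p Abhd6 ranked 492 among 12533 genes. With the library split as a term, a model chosen after the data were seen, its SE was 0.06, its unadjusted p 0.0343 and its adjusted p 0.729. With library weights the log2 difference of Abhd6 was 0.057 (unadjusted p 0.310), and without both replicate 1 libraries it was 0.12 (unadjusted p 0.141). The 8 glutamatergic markers, whose sums also did not overlap between genotypes, were higher in Tet1-deficient hippocampus in 6 cases and lower in 2. Singly only Camk2a did not overlap, 0 passed the threshold, and the part of these markers in the Abhd6 values was not tested.

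Abhd12 encodes a hydrolase known above all for the removal of lysophosphatidylserine, with a minor part in 2-AG breakdown, and occupies 150832493 to 150904741 on chromosome 2. It measured 78.3, 91.4 and 88.3 FPKM in Tet1-deficient and 77.2, 87.2 and 86.9 FPKM in wild-type libraries. The replicate 1 libraries of both genotypes were the 2 lowest, and the genotypes overlapped. The log2 difference was 0.04 (SE 0.10, 95% interval −0.20 to 0.28), and it was −0.02 without wild-type replicate 1 and −0.0080 without Tet1-deficient replicate 2.

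The genes of anandamide metabolism were likewise not distinguishable between genotypes. Napepld encodes the phospholipase D that releases N-acylethanolamines from their phospholipid precursors and lies on chromosome 5 from 21662901 to 21701396. It measured 8.48, 9.57 and 7.95 FPKM in Tet1-deficient and 9.36, 8.06 and 7.28 FPKM in wild-type libraries. The ranges overlapped (log2 difference 0.07, SE 0.12, 95% interval −0.21 to 0.35), and the difference was −0.0068 without wild-type replicate 3. Faah encodes the amide hydrolase that ends anandamide signalling and occupies 115967145 to 116017926 on chromosome 4. It measured 40.0, 36.5 and 39.6 FPKM in Tet1-deficient and 38.2, 38.0 and 35.4 FPKM in wild-type libraries. The Faah ranges also overlapped (log2 difference 0.05, SE 0.09, 95% interval −0.15 to 0.26), and the difference was 0.021 without wild-type replicate 3 and 0.095 without Tet1-deficient replicate 2.

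Cnr1, which encodes the CB1 receptor, had the smallest absolute log2 difference of the 9 genes. The receptor is dense on terminals of cholecystokinin interneurons and present at lower density on glutamatergic terminals, and the gene occupies 33924593 to 33948831 on chromosome 4. It measured 57.3, 44.2 and 42.1 FPKM in Tet1-deficient and 56.9, 44.1 and 42.3 FPKM in wild-type libraries. The 2 replicate 1 libraries stood at 56.9 and 57.3 FPKM and the other 4 between 42.1 and 44.2 FPKM, so the level differed along the library split, with both genotypes on each side of it. The means were 47.9 ± 8.23 FPKM in Tet1-deficient and 47.8 ± 7.92 FPKM in wild-type hippocampus (SD, n = 3). The log2 difference was 0.0020 (SE 0.16, 95% interval −0.38 to 0.39). With the split as a term, a model chosen after the data were seen, the SE was 0.04. The split was drawn from all tested genes, Cnr1 among them, so the smaller SE is no separate evidence. Within the 4 other libraries, a setting also chosen after the data were seen, the difference was −0.0025. It was −0.13 without Tet1-deficient replicate 1, −0.05 without wild-type replicate 2 and −0.08 without wild-type replicate 3. Markers of cholecystokinin interneurons, Cnr1 among them, summed to 332 to 359 FPKM in Tet1-deficient and 309 to 380 FPKM in wild-type libraries, and 0 of these 8 genes passed the threshold. The 7 general GABAergic markers were all lower in Tet1-deficient hippocampus, with sums of 418 to 594 FPKM against 512 to 676 FPKM in wild-type libraries. Singly only Gad1 was lower without overlap, as 2.21% of all tested genes were. Of the 7 markers 0 passed the threshold, and their part in the Cnr1 values was not tested. In whole tissue, fewer cells of a type and less RNA per cell cannot be told apart.

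**Figure D2:**
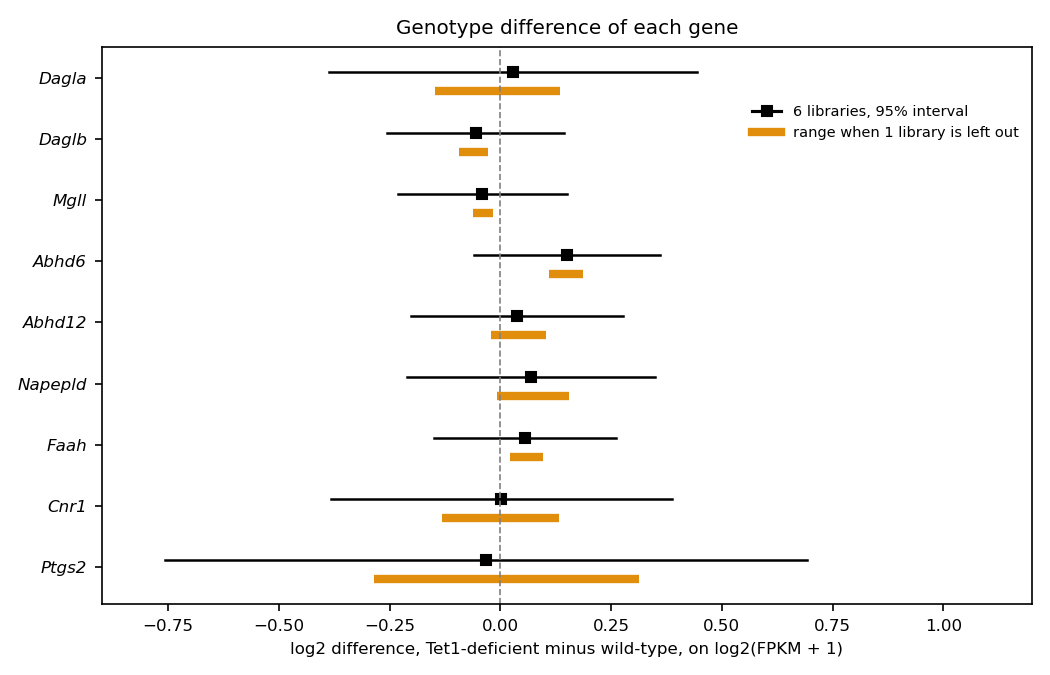
Log2 difference of each gene, Tet1-deficient minus wild-type, on log2(FPKM + 1), with limma's 95% interval in black and the range over fits that leave out 1 library in orange. Every interval includes 0, from the narrowest for Mgll (−0.23 to 0.15) to the widest for Ptgs2 (−0.76 to 0.69).

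Ptgs2 varied most of the 9 genes. It encodes cyclooxygenase 2, the inducible enzyme of prostaglandin synthesis, and occupies 150100031 to 150108227 on chromosome 1. It measured 53.6, 37.5 and 41.7 FPKM in Tet1-deficient and 72.9, 39.4 and 31.2 FPKM in wild-type libraries. The highest and the lowest value were both wild-type, a span of 2.34 times, and 97.2% of tested genes had a smaller SD over the libraries. The means were 44.3 ± 8.32 FPKM in Tet1-deficient and 47.8 ± 22.1 FPKM in wild-type hippocampus (SD, n = 3). The log2 difference was −0.03 (SE 0.31, 95% interval −0.76 to 0.69, limma adjusted p 1.00), which leaves ratios from 0.592 to 1.62 within the interval. Its sign turned when wild-type replicate 1 was left out (0.31), when Tet1-deficient replicate 2 was (0.08) and when Tet1-deficient replicate 3 was (0.0022), and it was −0.29 without wild-type replicate 3. In the 4 libraries that lie together Ptgs2 averaged 39.6 FPKM in Tet1-deficient and 35.3 FPKM in wild-type hippocampus (n = 2 each), a log2 difference of 0.17 and its limma p was 0.205 before adjustment.

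The 2 replicate 1 libraries were also extreme for other members. Both lay above the other 4 libraries for Cnr1, Mgll and Ptgs2 and below them for Dagla and Abhd12, which makes 55.6% of the 9 genes, near the 63.5% of all tested genes. Within the other 4 libraries the ratio of the highest to the lowest value was 1.05 for Cnr1, 1.04 for Mgll, 1.05 for Abhd12, 1.18 for Dagla and 1.34 for Ptgs2. The replicate 1 libraries were set apart by the values of all tested genes, these members included. Their extreme levels of Cnr1, Ptgs2 and Dagla therefore describe the split and are no test of these genes. Of these 2 libraries only the wild-type one carried Xist, and the part of sex in the split and in these values was not tested.

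**Figure D3:**
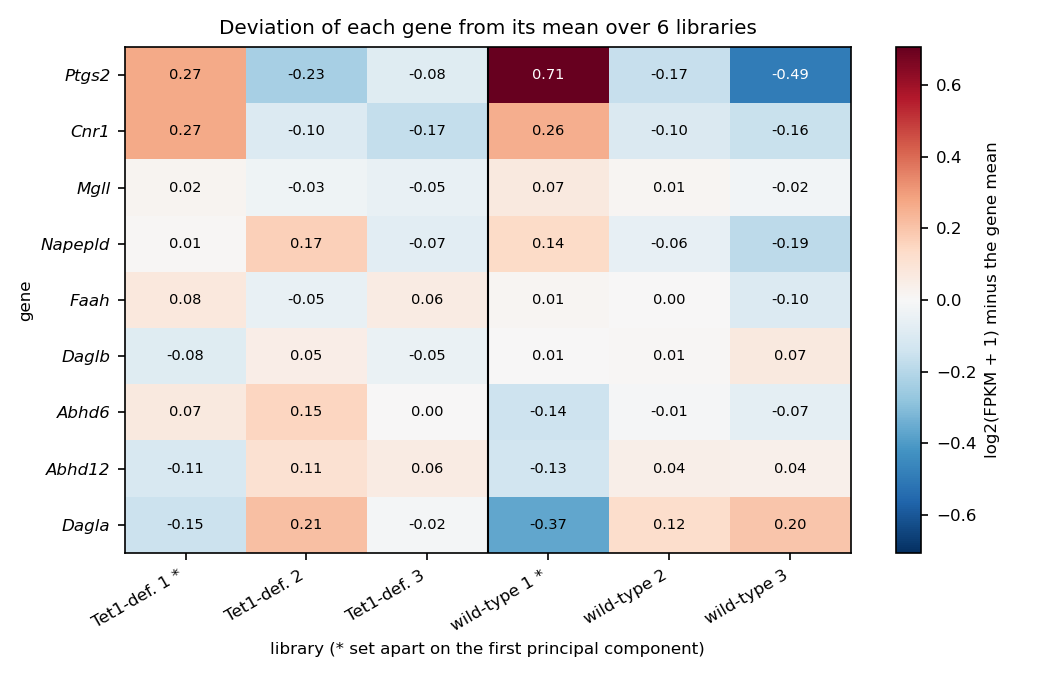
Deviation of each gene in each library from its mean over 6 libraries, on log2(FPKM + 1), with Tet1-deficient libraries left of the line and wild-type libraries right. Ptgs2 and Cnr1 are positive and Dagla and Abhd12 negative in both replicate 1 libraries (asterisks), with Ptgs2 from 0.71 in wild-type replicate 1 to −0.49 in wild-type replicate 3.

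Ptgs2 was set beside 12 activity-induced genes, none of which passed the threshold (7 higher and 5 lower in Tet1-deficient hippocampus). Npas4, a calcium-induced transcription factor gene, measured 8.03, 3.94 and 4.78 FPKM in Tet1-deficient and 15.5, 5.14 and 3.97 FPKM in wild-type libraries. Nr4a1, an immediate early nuclear receptor gene, measured 58.7, 33.1 and 43.5 FPKM in Tet1-deficient and 79.0, 41.1 and 31.9 FPKM in wild-type libraries. Both were highest in wild-type replicate 1 and next in Tet1-deficient replicate 1, as Ptgs2 was. Bdnf, a neurotrophin gene, had that order too, with 59.6, 43.1 and 48.0 FPKM in Tet1-deficient and 65.8, 43.6 and 41.4 FPKM in wild-type libraries. Inhba, which encodes the activin beta A subunit and is known as a delayed target of activity, ran the other way, with 46.6, 97.0 and 102 FPKM in Tet1-deficient and 28.5, 89.4 and 106 FPKM in wild-type libraries. Inhba was lowest in the 2 libraries where Ptgs2 was highest, and so were Nptx2, Gadd45b and Pcsk1. Fos, Egr1 and Homer1 were, like Ptgs2, highest in those 2 libraries. Arc, a synaptic effector gene, had 181, 191 and 271 FPKM in Tet1-deficient and 209, 224 and 215 FPKM in wild-type libraries and followed neither order.

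**Figure D4:**
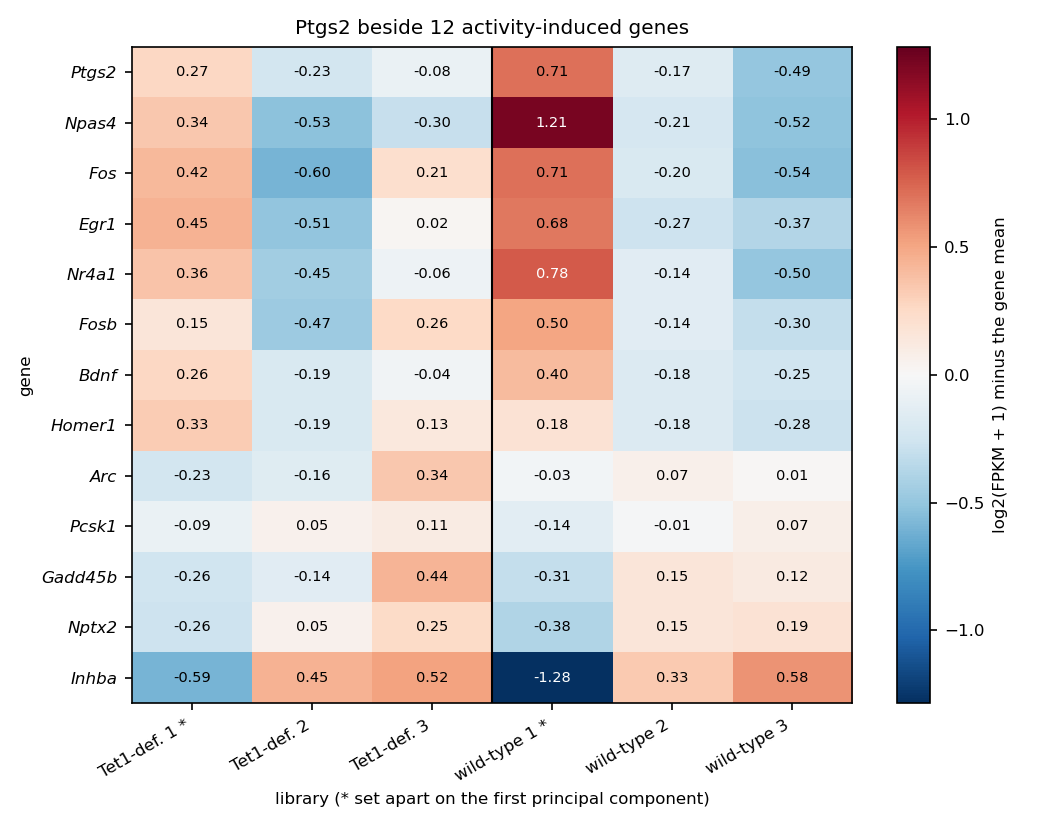
Deviation of Ptgs2 and of 12 activity-induced genes from each gene's mean over 6 libraries, on log2(FPKM + 1), Tet1-deficient libraries left and wild-type libraries right. Fos, Egr1, Npas4, Nr4a1, Fosb, Bdnf and Homer1 are positive in both replicate 1 libraries (asterisks), as Ptgs2 is. Inhba (−0.59 in Tet1-deficient and −1.28 in wild-type replicate 1), Nptx2, Gadd45b, Pcsk1 and Arc are negative in both.

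Over the 6 libraries the genes most like Ptgs2 by Pearson's r of log2(FPKM + 1) were Ntf3 (r = 0.996), Gnai1 (0.994) and Klhdc10 (0.993). Those most like Cnr1 were Nutf2 (0.999), Larp4 (0.998) and Cdk14 (0.997), and those most like Dagla were Pabpc4 (0.999), Gse1 (0.998) and Trim9 (0.995). Abhd6 resembled Cpsf7 (0.982) most and Napepld resembled Pcdhb15 (0.975). These are the highest values among the genes tested, over libraries that fall into a pair and a group of 4, and they describe likeness only.

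Ratios within a library compare 2 genes without the library's scale, and 6 were examined. Abhd6 over Mgll, the postsynaptic over the main 2-AG hydrolase, was 0.887, 0.976 and 0.889 in Tet1-deficient and 0.737, 0.843 and 0.825 in wild-type libraries. It was the 1 ratio of the 6 whose genotypes did not overlap, and its mean log2 was −0.13 ± 0.08 in Tet1-deficient and −0.32 ± 0.10 in wild-type hippocampus (SD, n = 3). The difference of 0.20 had an exact two-sided permutation p of 0.1, the smallest possible, and 0.6 after Benjamini-Hochberg adjustment over the 6 ratios. It lay between 0.14 and 0.23 when any 1 library was left out. Abhd6 is part of this ratio, so it adds no evidence apart from the level of Abhd6.

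Dagla over Daglb, the 2 lipases of 2-AG synthesis, was 3.17, 3.71 and 3.40 in Tet1-deficient and 2.54, 3.60 and 3.62 in wild-type libraries. Dagla exceeded Daglb in 6 of 6 libraries. Dagla over Mgll, synthesis over breakdown of 2-AG, was 0.784, 1.05 and 0.908 in Tet1-deficient and 0.651, 0.961 and 1.03 in wild-type libraries, lowest in replicate 1 of each genotype. Napepld over Faah ran from 0.201 to 0.262 in Tet1-deficient and from 0.206 to 0.245 in wild-type libraries. Abhd12 over Mgll ran from 1.70 to 2.06 in Tet1-deficient and from 1.62 to 1.94 in wild-type libraries. These 4 ratios overlapped between genotypes, with exact permutation p-values from 0.5 to 0.9.

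**Figure D5:**
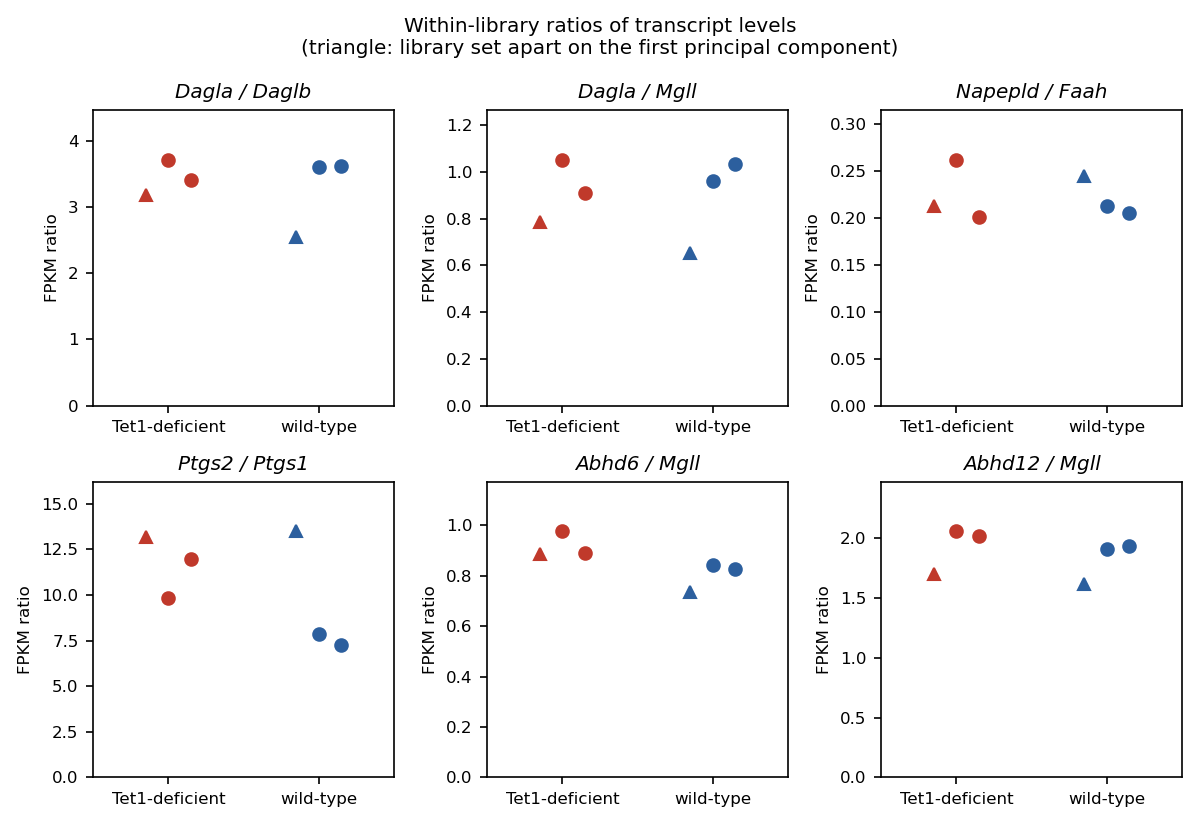
Ratio of the FPKM of 2 genes within each library, Tet1-deficient (red) left and wild-type (blue) right; triangles are the replicate 1 libraries. Abhd6 over Mgll is the panel without overlap, from 0.887 to 0.976 in Tet1-deficient and from 0.737 to 0.843 in wild-type libraries.

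Ptgs2 over Ptgs1, the inducible over the constitutive cyclooxygenase, was 13.2, 9.86 and 11.97 in Tet1-deficient and 13.5, 7.88 and 7.25 in wild-type libraries. The ranges overlapped through wild-type replicate 1, and the difference of mean log2 ratios was 0.34 (exact permutation p = 0.4, adjusted 0.9). That difference was 0.17 without wild-type replicate 3 and 0.62 without wild-type replicate 1. Ptgs1, which in brain is prominent in microglia, measured 4.06, 3.81 and 3.49 FPKM in Tet1-deficient and 5.40, 4.998 and 4.30 FPKM in wild-type libraries. Every Tet1-deficient library was below every wild-type library, as for 2.21% of tested genes, with means of 3.78 ± 0.288 FPKM in Tet1-deficient and 4.90 ± 0.559 FPKM in wild-type hippocampus (SD, n = 3). Its log2 difference was −0.30 (SE 0.11), and limma's p was 0.0260 before and 1.00 after adjustment, so it did not pass. Microglial markers summed to 122 to 139 FPKM in Tet1-deficient and 127 to 138 FPKM in wild-type libraries. Of these 7 markers 3 were higher and 4 lower. Endothelial markers summed to 11.1 to 23.0 FPKM in Tet1-deficient and 13.3 to 27.1 FPKM in wild-type libraries, with 6 of 6 lower. Mural cell markers summed to 17.2 to 27.9 FPKM in Tet1-deficient and 20.9 to 36.6 FPKM in wild-type libraries. Of 5 tested mural markers 1 was higher and 4 were lower. Meningeal fibroblast markers summed to 39.9 to 58.4 FPKM in Tet1-deficient and 40.9 to 100 FPKM in wild-type libraries, with 7 of 7 lower. Singly only Dcn of the meningeal list was lower without overlap, as 2.21% of tested genes were. No marker of these lists was at 0 in all libraries, and no marker passed the threshold. The part of these markers in the Ptgs1 and prostanoid values was not tested.

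Around the 9 members, 77 further genes of the pathway were listed, of which 53 reached the 1 FPKM filter. Of these 27 were higher and 26 lower in Tet1-deficient hippocampus, 0 passed the threshold and 3 had an unadjusted p under 0.05 (5.66%, against 1.36% of all tested genes). The 3 were Ptgs1, Pla2g4e and Alox12b, all lower without overlap. Alox12b reached the filter through its wild-type mean of 2.94 FPKM, against 0.970 FPKM in Tet1-deficient hippocampus. The lists were chosen with earlier results of these data known, so the share of 5.66% is a description and no test. The median log2 difference over the 53 was 0.00037, against 0.0055 over all genes tested. Pla2g4e encodes an N-acyltransferase that makes the precursor of anandamide and was chosen for naming after its values were seen. It measured 1.11, 1.38 and 2.53 FPKM in Tet1-deficient and 3.03, 3.97 and 2.72 FPKM in wild-type libraries, with a log2 difference of −0.69 (unadjusted limma p 0.0140, adjusted p 1.00). Alox12b, a lipoxygenase gene best known from epidermis, measured 0.960, 0.819 and 1.13 FPKM in Tet1-deficient and 1.47, 4.30 and 3.05 FPKM in wild-type libraries. Its log2 difference was −0.93 (unadjusted limma p 0.00983, adjusted p 1.00), and it passed only with estimated library weights, at −1.18 with an adjusted p of 0.0112.

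Among receptors and their partners, Cnr1 was the single receptor gene of the list above the filter, and Cnr2, Gpr55, Gpr18, Gpr119, Trpv1 and Ppara lay below it. Cnrip1, which encodes a protein that binds the tail of the CB1 receptor, measured 59.1, 54.4 and 54.2 FPKM in Tet1-deficient and 54.8, 52.5 and 49.7 FPKM in wild-type libraries. Its ranges overlapped and its log2 difference was 0.09. Of 9 other tested genes of the phospholipase C route to 2-AG, 4 were higher and 5 lower, with Gnaq, the Gq alpha subunit gene, at 74.1 ± 10.8 FPKM in Tet1-deficient and 74.0 ± 9.47 FPKM in wild-type hippocampus (SD, n = 3). Of 9 diacylglycerol kinase genes, whose products compete for the substrate of Dagla, 5 were higher and 4 lower. Dgkz, the most abundant of them, had 125 ± 11.8 FPKM in Tet1-deficient and 127 ± 23.1 FPKM in wild-type hippocampus.

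In the other lists, too, 0 genes passed. Of 3 further genes of 2-AG breakdown 1 was higher and 2 were lower, and Ddhd2 had 18.0 ± 1.50 FPKM in Tet1-deficient and 17.5 ± 1.80 FPKM in wild-type hippocampus (SD, n = 3). Of 8 further genes of N-acylethanolamine synthesis 3 were higher and 5 lower, and Gde1, a glycerophosphodiesterase gene, had 85.4 ± 3.31 FPKM in Tet1-deficient and 83.3 ± 4.57 FPKM in wild-type hippocampus. Naaa, the lysosomal amidase gene that shares substrates with Faah, had 11.97 ± 1.29 FPKM in Tet1-deficient and 10.6 ± 0.770 FPKM in wild-type hippocampus, with a log2 difference of 0.16. Of 4 fatty acid carrier genes 3 were higher, among them Fabp5, which carries anandamide within cells, at 138 ± 21.0 FPKM in Tet1-deficient and 124 ± 8.90 FPKM in wild-type hippocampus.

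Among prostanoid synthesis genes other than Ptgs2, 4 of 8 were higher and 4 lower. Ptgds, the prostaglandin D synthase gene of meninges and oligodendrocytes, spread widely, with 261, 372 and 217 FPKM in Tet1-deficient and 433, 254 and 723 FPKM in wild-type libraries. The wild-type range enclosed 2 of the 3 Tet1-deficient values, and the 2 highest values were the 2 libraries with the highest sums of meningeal fibroblast markers. Ttr, the defining transcript of choroid plexus, which also makes Ptgds, measured 17.7, 187 and 5.85 FPKM in Tet1-deficient and 11.7, 3.44 and 294 FPKM in wild-type libraries. Ptges, which encodes the inducible prostaglandin E synthase downstream of cyclooxygenase 2, lay under the filter, at 0.779, 0.676 and 0.542 FPKM in Tet1-deficient and 0.904, 0.855 and 1.199 FPKM in wild-type libraries. The ranges did not overlap, and in the model of all genes above 0 its log2 difference was −0.25 and limma's p 0.0293 before and 1.00 after adjustment. How many genes under the filter had ranges without overlap was not counted. Of 6 tested genes of prostanoid receptors, transport and breakdown 4 were higher and 2 lower, and Ptgr2 had 17.2 ± 2.38 FPKM in Tet1-deficient and 16.8 ± 2.15 FPKM in wild-type hippocampus. Of 3 tested lipoxygenase pathway genes 1 was higher and 2 were lower, and Alox5ap had 4.03 ± 0.600 FPKM in Tet1-deficient and 3.79 ± 0.222 FPKM in wild-type hippocampus.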

How the data were processed

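RNA was measured by sequencing in 3 Tet1-deficient and 3 wild-type hippocampi, grouped by the genotype label. Replicate numbers follow sample order and pair no libraries. The authors deposited gene-level FPKM, in a column for each library. TopHat2 2.0.9, Cufflinks 2.1.1 and mm10 are named in the submitters' processing notes. Annotation, strand setting and filters are not given in these sources. FPKM keeps no read count, so depth is unknown and no counting interval is given. Genes whose mean reached 1 FPKM (12533) were fitted as log2(FPKM + 1) with limma 3.58.1 in R 4.3.3 (intensity trend, no covariate, two-sided, Benjamini-Hochberg, threshold 0.05). The fit was checked on simulated libraries without a split, so the check does not cover the split of these libraries. A log2 difference on this scale understates the change of low genes. Tet1 and Ptges come from the same model over 19123 genes above 0. Permutation tests were exact (SciPy 1.17.1). Positions are from GENCODE M21, promoters from RefSeq. All members, the most abundant or preset genes of each list and genes past the threshold were named; not all are described. Members and lists were chosen with earlier results of these data known. Alternatives were another pseudocount, no filter, 2 other scalings, no trend, library weights and leaving out each library; the split by the first principal component was added after the data were seen.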

Additional observations from a re-analysis of the deposited data

How the results depend on the processing

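No paired analysis was possible because the replicate numbers follow sample order and link no libraries. In 14 alternatives 0 of the 9 members passed the threshold, their lowest adjusted p being 0.663, and 18 of 126 values had the other sign. With library weights the log2 difference was −0.043 for Cnr1, −0.12 for Dagla, 0.057 for Abhd6, 0.15 for Ptgs2, −0.0016 for Ptgr2 and −0.059 for Alox5ap. It was −0.013 for Cnr1 with quantile normalization, and 0.019 for Gnaq and 0.012 for Dgkz with median-of-ratios scaling. Without both libraries set apart (an alternative added after seeing the data) it was −0.0025 for Cnr1, −0.064 for Dagla, 0.17 for Napepld and 0.17 for Ptgs2. The count of all genes called, 4, became 13 without both libraries set apart, 59 with weighted libraries and 8 when the split was a covariate. With 1 library left out it was 0 (Tet1-deficient replicate 2 or wild-type replicate 3), 1 (Tet1-deficient replicate 3 or wild-type replicate 2), 5 (Tet1-deficient replicate 1) or 6 (wild-type replicate 1). The count of members with an unadjusted p under 0.05 was 1 (Abhd6) with the split as a term. With 1 library left out the log2 difference ran from −0.13 to 0.13 for Cnr1, −0.15 to 0.14 for Dagla, −0.0068 to 0.15 for Napepld, −0.020 to 0.10 for Abhd12, −0.094 to −0.027 for Daglb, −0.061 to −0.017 for Mgll, 0.021 to 0.095 for Faah, 0.11 to 0.19 for Abhd6, −0.29 to 0.31 for Ptgs2, −0.12 to 0.099 for Gnaq, −0.022 to 0.12 for Ddhd2, −0.0096 to 0.064 for Gde1, −0.17 to 0.073 for Dgkz and −0.078 to 0.12 for Ptgr2. The log2 ratio difference ran from −0.078 to 0.18 for Dagla over Daglb, −0.13 to 0.20 for Dagla over Mgll, −0.094 to 0.097 for Napepld over Faah, 0.17 to 0.62 for Ptgs2 over Ptgs1 and −0.0031 to 0.17 for Abhd12 over Mgll. The causes were not tested. With 3 libraries a genotype and unknown depth, the 95% interval of Ptgs2 is the widest of the 9 members and that of Mgll the narrowest.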
